A study of Mus musculus with 24 samples.

Results

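The mitochondrial genome of the mouse is covered here by 35 rows of the expression tables, all those whose name starts with mt-, out of 55469 rows in each table. They hold 11 mRNA rows, 2 rRNA rows and 22 tRNA rows, and every count below is read against these 35. RNA sequencing had been performed on brain and liver of 4 groups of mice: WT (wild-type) and homozygous Phe11KO, Phe21KO and Phe31KO animals. Phe11KO mice lack the nuclear gene tRNA-Phe-1-1, Phe21KO mice lack tRNA-Phe-2-1 and Phe31KO mice lack tRNA-Phe-3-1. Each genotype had 3 libraries in each tissue, named A, B and C in the labels, which makes 24 samples. The study's methods describe male WT and homozygous mutant mice on a C57BL/6N background, matched by age and litter. They also say that every experiment drew mice from different litters. The study's reporting summary gives an age of 10 weeks and results from both sexes. Sex and age are not given in the methods for RNA sequencing. Whether brain and liver libraries of the same letter came from the same mouse is not given in the sources used here, and the comparisons of tissues below treat all 24 samples as independent. The deletions were made with a single CRISPR/Cas9 guide that cuts the whole nuclear tRNA-Phe family, followed by backcrossing, so each knockout is a single line. No row carried the name of a nuclear tRNA-Phe gene, and the genotype labels could therefore not be checked against the deleted gene. The mitochondrial tRNA-Phe, mt-Tf, is a separate gene that none of the deletions target.

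Mitochondrial DNA is a small circle present in many copies per cell. Both of its strands are transcribed as long precursors, and the tRNAs that punctuate the precursors are cut out to release the rRNAs and mRNAs. The mRNAs encode core subunits of the respiratory chain (complexes I, III and IV) and of the ATP synthase (complex V), and they are translated inside the organelle by mitochondrial ribosomes that use only mitochondrially encoded tRNAs. The cytosolic tRNAs deleted in these mice serve the proteins made from nuclear mRNAs, among them all the factors that copy, transcribe and process mitochondrial DNA.

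The mitochondrial tRNA-Phe is shown beside the site cut in the nuclear family, since both have a like name and the same anticodon. mt-Tf occupies bases 1-68 of the mitochondrial chromosome (GRCm38.p6). Its anticodon is in capitals, as is that of the guide target, whose last 3 bases are the PAM.
mt-Tf: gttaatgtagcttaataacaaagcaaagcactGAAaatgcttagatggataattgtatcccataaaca
guide target: gcgttagactGAAgatctaaagg
Across the mitochondrial transcripts, the 20-base guide sequence came closest to mt-Ty, the tRNA for tyrosine, with 3 mismatches and without an NGG PAM. The closest site with an NGG PAM had 8 mismatches, within mt-Nd1, and the best alignment to mt-Tf had 10. The stretch of mt-Ty is shown with the bases that differ in capitals; counted from 1 at the 5′ end of the target, they are G3A, A12T and G14A in the target and G22C and G23A in the PAM.
mt-Ty: gcAttagactgTaAatctaaaCA

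Both joined rows of the tables, mt-Nd4l_4 and mt-Atp8_6, stand for mRNAs that carry overlapping reading frames, and the shared bases are shown in capitals because reads there cannot be given to either gene alone. mt-Nd4l ends 7 bases inside mt-Nd4, and mt-Atp8 ends 43 bases inside mt-Atp6.
mt-Nd4l and mt-Nd4: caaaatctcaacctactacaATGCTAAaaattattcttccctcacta
mt-Atp8 and mt-Atp6: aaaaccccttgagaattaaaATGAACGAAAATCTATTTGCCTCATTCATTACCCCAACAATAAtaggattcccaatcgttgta
In order along the GRCm38.p6 mitochondrial chromosome, mt-Rnr1 lies at 70-1024, mt-Rnr2 at 1094-2675, mt-Nd1 at 2751-3707, mt-Nd2 at 3914-4951, mt-Co1 at 5328-6872, mt-Co2 at 7013-7696, mt-Atp8_6 at 7766-8607, mt-Co3 at 8607-9390, mt-Nd3 at 9459-9806, mt-Nd4l_4 at 9877-11544, mt-Nd5 at 11742-13565, mt-Nd6 at 13552-14070 and mt-Cytb at 14145-15288. Of the mRNA rows only mt-Nd6 is encoded on the light strand. Its last bases lie opposite the end of mt-Nd5, and the counting took account of strand.

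The sequencing depth was 30365760 to 46225360 reads in brain and 32276896 to 51584522 reads in liver. Tissue labels matched their markers: the neuronal gene Snap25 had 32419 to 67238 normalised counts in brain and 0 to 3.38 in liver, and the hepatocyte gene Alb had 1308110 to 2477750 in liver and 3.23 to 877 in brain. All values below are the deposited normalised counts, which are read counts divided by a size factor for each library within its tissue, or shares of their sum in a sample. Of the 35 rows, 13 were abundant enough to be tested (mean of 10 or more), the same 13 in both tissues: all mRNA and rRNA rows and no tRNA row. Liver WT libraries B and C, liver Phe11KO library B and brain Phe21KO library C stood apart from the rest of their groups in several mitochondrial rows. As whole pieces of tissue were sequenced, fewer cells of a type and less RNA per cell cannot be told apart.

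The share of the transcriptome taken by mitochondrially encoded RNA did not pass the test for a difference between genotypes in either tissue, and in liver its lowest values were those of Phe11KO. In brain the share of all normalised counts in libraries A, B and C was 5.44, 5.68 and 5.17% in WT, 5.52, 5.64 and 5.08% in Phe11KO, 5.52, 6.30 and 4.26% in Phe21KO and 5.49, 6.32 and 5.99% in Phe31KO. The ranges of all 4 genotypes overlapped, with the lowest share in Phe21KO library C and the highest in Phe31KO library B. The group means were 5.43 ± 0.259%, 5.41 ± 0.296%, 5.36 ± 1.03% and 5.94 ± 0.418% (SD, n = 3) in the same order, and an exact permutation test across the 4 genotypes (two-sided, over every assignment of the 12 libraries) gave p = 0.638, adjusted p = 0.729 over the 8 share tests (4 shares in each of 2 tissues). In liver the shares were 4.61, 5.43 and 5.76% in WT, 4.09, 4.14 and 4.17% in Phe11KO, 4.82, 5.11 and 4.97% in Phe21KO and 4.32, 4.99 and 4.78% in Phe31KO. All 3 Phe11KO libraries lay below all 9 others. The liver means were 5.27 ± 0.590%, 4.13 ± 0.0418%, 4.97 ± 0.143% and 4.70 ± 0.338%, and the difference across genotypes did not pass the threshold of 0.05 after adjustment in an exact permutation test (p = 0.0217, adjusted p = 0.0578). With a library left out the adjusted p ran from 0.00156 (without WT library A) to 0.192. With the 10 most abundant nuclear rows taken out of the total it was 0.0362.

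**Figure D1:**
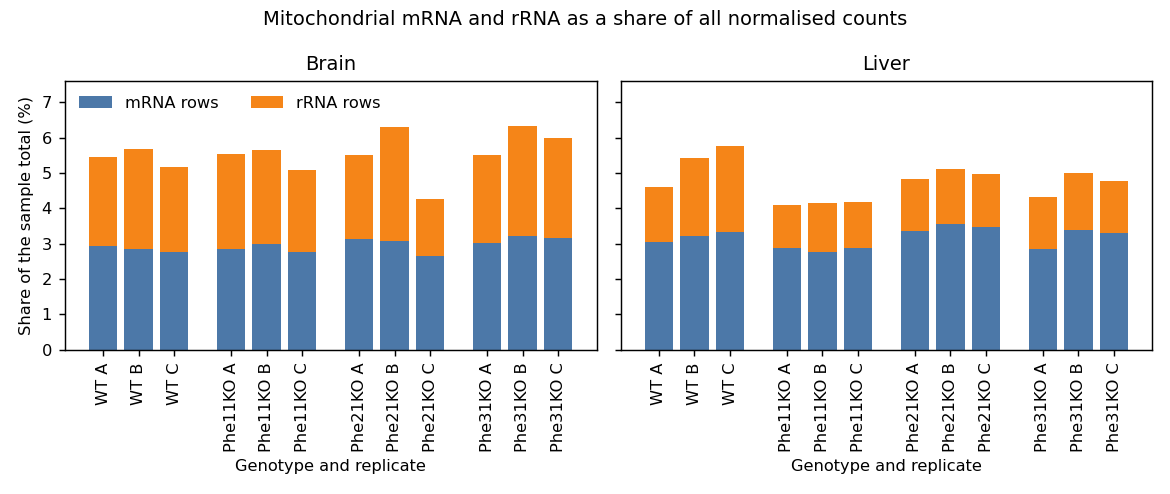
Bars give the share (%) of all normalised counts held by the mitochondrial mRNA rows (lower, blue) and rRNA rows (upper, orange) in each of 12 brain and 12 liver samples, grouped by genotype with replicates A, B and C. In liver the rRNA part is tallest in WT libraries B and C (2.20 and 2.42%) and the whole bar is lowest in the 3 Phe11KO libraries.

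The rRNA part of this share passed the test across genotypes in liver, where WT libraries B and C held the most, and the mRNA part did not. Of all liver counts the mRNA rows held 3.05, 3.23 and 3.34% in WT, 2.86, 2.77 and 2.88% in Phe11KO, 3.37, 3.57 and 3.48% in Phe21KO and 2.85, 3.38 and 3.31% in Phe31KO, with every Phe21KO library above every WT library and every Phe11KO library below every WT library. An exact permutation test across genotypes gave p = 0.0208 and adjusted p = 0.0578. With a library left out the adjusted p ran from 0.0109 (without Phe31KO library A) to 0.181. With the 10 most abundant nuclear rows out of the total it was 0.0362. The rRNA rows of liver held 1.56, 2.20 and 2.42% in WT, 1.22, 1.37 and 1.30% in Phe11KO, 1.45, 1.54 and 1.49% in Phe21KO and 1.47, 1.61 and 1.47% in Phe31KO. WT libraries B and C were above all others, while WT library A lay within the range of the knockouts. The means were 2.06 ± 0.445%, 1.30 ± 0.0720%, 1.49 ± 0.0441% and 1.52 ± 0.0768%, and the liver rRNA share was the only share to pass the threshold across genotypes (exact permutation test, p = 0.00617, adjusted p = 0.0494). This call was lost without any of the 9 knockout libraries (adjusted p = 0.0670 without Phe31KO A to 0.181 without Phe11KO A). Without both WT libraries B and C only WT library A is left, too few to judge the call. In brain the mRNA rows held 2.93, 2.84 and 2.75% in WT, 2.85, 2.99 and 2.76% in Phe11KO, 3.13, 3.08 and 2.64% in Phe21KO and 3.03, 3.22 and 3.17% in Phe31KO, and the rRNA rows held 2.51, 2.84 and 2.41% in WT, 2.68, 2.65 and 2.32% in Phe11KO, 2.38, 3.23 and 1.62% in Phe21KO and 2.47, 3.11 and 2.83% in Phe31KO. The rRNA share of Phe21KO library C was the lowest of all brain samples and that of library B the highest. Neither brain share passed the threshold in exact permutation tests (adjusted p = 0.323 for mRNA and 0.781 for rRNA). With a library left out the adjusted p of the brain mRNA share ran from 0.0434 (without Phe21KO library C) to 0.653. Phe21KO library C also had the highest summed level of 3 choroid plexus markers of the brain samples. It was 2536 normalised counts against 98.3 to 714 in WT. Phe31KO libraries A and C were above the WT range as well, at 925 and 1431, with rRNA shares of 2.47 and 2.83%. The part of these marker levels in the shares was not tested.

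Over all 4 genotypes together, brain held relatively more mitochondrial rRNA than liver, and liver held more mitochondrial mRNA. Over the 12 samples of each tissue the mitochondrial share was 4.26 to 6.32% (median 5.52%) in brain and 4.09 to 5.76% (median 4.80%) in liver. The mean was higher in brain by 0.770 percentage points (exact permutation test of tissue labels within genotype, two-sided, adjusted p = 0.00550 over 4 shares). This came with a higher rRNA share in brain, 1.62 to 3.23% against 1.22 to 2.42% in liver, a difference of 0.994 points (adjusted p = 0.0001, exact permutation test). The mRNA share went the other way, with 2.64 to 3.22% in brain and 2.77 to 3.57% in liver, a difference of -0.224 points (adjusted p = 0.0144, exact permutation test). This direction was not found in every genotype. The mean mRNA share was 2.84% in brain and 3.21% in liver in WT, and 2.95 and 3.47% in Phe21KO. It was 3.14 and 3.18% in Phe31KO, and in Phe11KO brain was not lower (2.87 and 2.84%). With the 2 rRNA rows taken out of both the members and the total, the mitochondrial share was lower in brain, with a difference of -0.197 points. The counts of rRNA for each count of mRNA were 0.613 to 1.05 in brain and 0.428 to 0.725 in liver. In the WT samples alone, where 3 against 3 cannot give a p below 0.1, the differences were 0.164, 0.529 and -0.365 points for all rows, rRNA and mRNA. How rRNA was removed or mRNA enriched when the libraries were made is not given in the sources used here, and its part in the rRNA level was not tested.

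Subunits of cytochrome c oxidase (complex IV) made up most of the mitochondrial mRNA in every sample, 82.7 to 85.5% in brain and 71.9 to 86.2% in liver. mt-Co1, the catalytic subunit, held 54.7 ± 0.980% in brain and 57.1 ± 5.06% in liver (mean ± SD of the percent of mRNA counts, n = 12), a difference that did not pass the threshold (exact permutation test, adjusted p = 0.133 over 11 rows). Without liver Phe11KO library B, in which mt-Co1 was lowest at 42.7%, the difference passed (adjusted p = 0.00113). mt-Co2, which takes up electrons from cytochrome c, held 9.59 ± 0.502% in brain and 7.61 ± 1.04% in liver (adjusted p = 0.000385, same exact test). mt-Co3 held 19.7 ± 0.545% in brain and 17.1 ± 1.35% in liver (adjusted p = 0.000183). Both were thus a larger part of the mRNA in brain over all genotypes, but in Phe11KO the tissues overlapped. There mt-Co2 held 10.2, 8.80 and 8.75% in brain and 8.17, 10.6 and 7.56% in liver. mt-Co3 held 18.5, 19.8 and 20.4% in Phe11KO brain and 18.7, 18.6 and 18.7% in Phe11KO liver. mt-Atp8_6, for the membrane subunits of ATP synthase, held 4.80 ± 0.185% in brain and 4.86 ± 0.786% in liver, and mt-Cytb, the only mitochondrially encoded subunit of complex III, held 2.27 ± 0.155% in brain and 2.78 ± 0.597% in liver. The share of mt-Cytb was higher in liver over all genotypes (adjusted p = 0.00473) and that of mt-Atp8_6 did not differ past the threshold (0.823). In Phe31KO the mt-Cytb shares overlapped, with 2.21, 2.28 and 2.37% in brain and 2.63, 1.99 and 2.39% in liver.

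The NADH dehydrogenase (complex I) subunits held 7.76 to 9.76% of mitochondrial mRNA in brain and 7.59 to 17.2% in liver, and 4 of these 6 rows held a larger part in liver. mt-Nd5 had 0.602 to 0.959% in brain and 1.03 to 2.90% in liver, with means of 0.823 ± 0.106% in brain and 1.78 ± 0.624% in liver. mt-Nd6 had 0.0877 to 0.116% in brain and 0.147 to 0.280% in liver. For these 2 neighbouring genes on opposite strands the tissues did not overlap, and the exact permutation test gave p = 1.25e-05 for each, the smallest value it can give (adjusted p = 6.88e-05). mt-Nd2 held 0.656 ± 0.0837% in brain and 1.07 ± 0.429% in liver (adjusted p = 0.000309). mt-Nd4l_4 held 1.56 ± 0.115% in brain and 2.29 ± 0.796% in liver (adjusted p = 0.00110). Both were higher in liver over all genotypes, with tissue ranges that overlapped. For mt-Nd4l_4 the liver shares were 2.59, 3.37 and 3.73% in WT but 1.95, 1.37 and 1.62% in Phe31KO. The Phe31KO brain shares of this row were 1.53, 1.55 and 1.67%. mt-Nd3 held 2.33 ± 0.141% in brain and 2.23 ± 0.490% in liver (adjusted p = 0.438), and mt-Nd1 held 3.44 ± 0.246% in brain and 2.93 ± 0.760% in liver (adjusted p = 0.0541). The mt-Nd1 difference passed without liver Phe11KO library B (adjusted p = 0.000165), its highest library at 5.23%, without liver WT library B (0.0473) and on the log2 scale (0.0167). In all, 7 of 11 mRNA rows passed. In WT samples alone none of 11 could pass, as 3 against 3 is too few for the exact test.

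**Figure D2:**
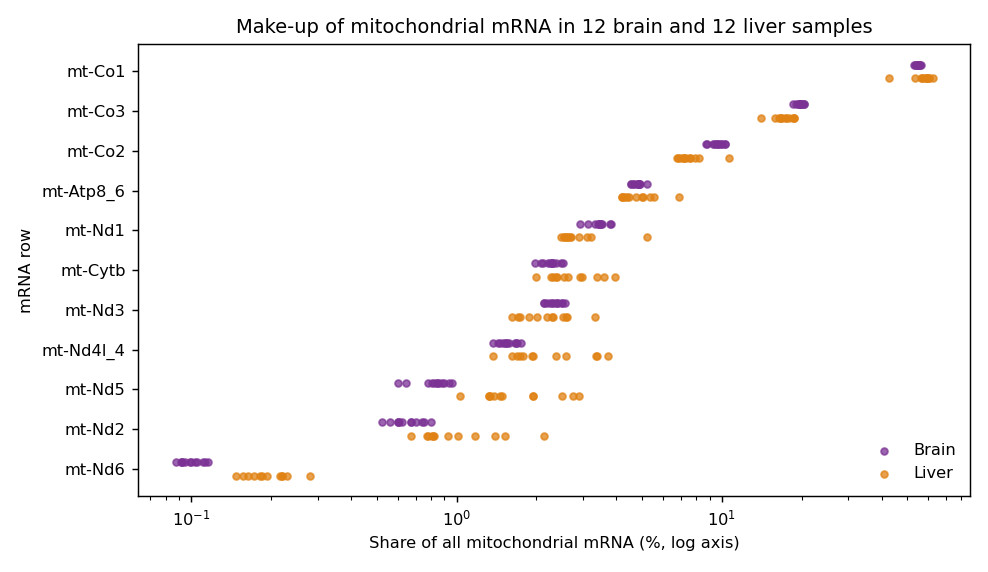
Each point is a sample and gives the share (%, log axis) of all mitochondrial mRNA counts held by a row, with brain in purple and liver in orange (12 samples each). The 2 tissues separate fully for mt-Nd5 and mt-Nd6, and liver Phe11KO library B is the outlying orange point at mt-Co1 (42.7%) and mt-Nd1 (5.23%).

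Per kilobase of transcript, the 13 rows differed widely in level, although 12 of them are encoded on the same strand. In brain mt-Rnr2, the large-subunit rRNA, was first with a mean of 523263 ± 82734 normalised counts per kb (SD, n = 12). It was followed by mt-Co1 with 364207 ± 20376, mt-Co3 with 258287 ± 17029 and mt-Co2 with 144347 ± 13331. The means of these 4 rows were further apart than their SDs. The small-subunit rRNA, mt-Rnr1, had 78658 ± 21983, within its SD of mt-Nd3 (69065 ± 6722) and mt-Atp8_6 (58646 ± 5058). Below them came mt-Nd1 (36992), mt-Cytb (20403), mt-Nd4l_4 (9627), mt-Nd2 (6499), mt-Nd5 (4645) and the light-strand gene mt-Nd6 (1996). In liver the order of the means over all 4 genotypes was mt-Co1 (498678 ± 83319.6), mt-Rnr2 (383633 ± 79757), mt-Co3 (291613), mt-Co2 (147954), mt-Nd3 (84951 ± 14918), mt-Atp8_6 (76675 ± 8808), mt-Rnr1 (68342 ± 28108), mt-Nd1 (40488), mt-Cytb (32177), mt-Nd4l_4 (18176), mt-Nd2 (13545 ± 4517), mt-Nd5 (12907 ± 4142) and mt-Nd6 (5023). This liver order did not hold in WT alone, where mt-Rnr1 (107684 ± 33444 per kb, n = 3) had a higher mean than mt-Atp8_6 (84297 ± 9688) and mt-Nd3 (67484 ± 2588), while in each knockout it was the lowest of these 3. mt-Rnr2 stood above mt-Co1 in every brain library, and in liver mt-Co1 stood above mt-Rnr2 in all but WT B, WT C and Phe11KO B. In WT liver their means, 503218 ± 10383 and 486121 ± 94445, did not differ beyond their spread. mt-Nd2 and mt-Nd5 did not differ beyond their spread in liver. The 2 tissues were normalised separately, so these levels are compared within a tissue only. The rRNAs were far from equal per kilobase, as the means above show. Not scaled for their lengths of 1582 and 955 bases, mt-Rnr2 had 8.74 to 13.8 counts for each count of mt-Rnr1 in brain and 6.78 to 11.3 in liver. The part of rRNA removal or mRNA enrichment, not given in the sources, in the place of the rRNAs was not tested.

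Almost no reads were counted on the mitochondrial tRNA rows. All 22 rows together held 268 of 47584886 mitochondrial reads in the 24 samples, 120 in brain and 148 in liver. mt-Tf had 0 reads in all 24 samples, which allows a share of mitochondrial reads of up to 6.30e-06% (3 reads of the total, counting error only), as did 7 other tRNA rows. As so few reads were counted on tRNA rows of any kind, the level of mt-Tf in the tissues cannot be read from these counts. Whether tRNAs were missing from the libraries or were missed in the counting was not tested. mt-Tm, the tRNA for methionine (bases 3845-3913), stood apart with 144 reads, 53.7% of all tRNA reads, and was present in all 12 samples of each tissue (76 reads in brain and 68 in liver). Its sequence is shown with the anticodon in capitals, as the only tRNA row read in every sample.
mt-Tm: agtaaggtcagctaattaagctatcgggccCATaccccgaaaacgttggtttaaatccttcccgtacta
The rows next in mean level were mt-Tv (1.05 normalised counts) and mt-Ts1 (0.969) in brain, and mt-Ts1 (2.82) and mt-Th (14 reads in all) in liver, for valine, serine and histidine. No tRNA row reached the mean of 10 that the test asked for, and the highest count of any tRNA row in a sample was 12 reads. As a share of all counts the tRNA rows did not differ past the threshold between genotypes (exact permutation test, adjusted p = 0.250 in brain and 0.710 in liver) or between tissues (adjusted p = 0.949).

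In brain no mitochondrial row passed the test in any comparison of genotypes. With limma on log2(normalised count + 1), 0 of 13 rows passed an adjusted p of 0.05 (Benjamini-Hochberg over all genes tested) in Phe11KO against WT, where 1.05% of all genes did, in Phe21KO against WT (0% of all genes) and in Phe31KO against WT (0%). The rows with an unadjusted p under 0.05 numbered 1, 0 and 1, and edgeR on the recovered reads called 0 in each. The comparisons between knockouts and the test for any genotype difference gave 0 of 13 as well, with limma and edgeR, where limma called 0.530% of all genes in Phe11KO against Phe21KO, 2.11% in Phe11KO against Phe31KO, 0% in Phe21KO against Phe31KO and 0.634% across all 4; the rows with an unadjusted p under 0.05 were 1, 2, 0 and 1. The median log2 difference of the 13 rows from WT was -0.026 in Phe11KO, -0.0030 in Phe21KO and 0.12 in Phe31KO, beside -0.00059, -0.0016 and 0.0018 over all genes tested. The 3 comparisons share the WT libraries. In Phe31KO all 13 rows had a positive difference, with 5 rows whose 3 values all lay above WT (background of 7.93% of genes) and 0 below (8.48%). Phe11KO had 0 rows wholly above WT (12.8%) and 2 wholly below (12.4%), and Phe21KO had none above (6.02%) or below (5.43%).

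The row with the lowest p in Phe11KO brain was mt-Nd5, a proton-pumping subunit of complex I. Its counts were 8487, 8397 and 9159 in WT, 8359, 6907 and 5761 in Phe11KO, 8545, 9606 and 7434 in Phe21KO and 9286, 9655 and 10071 in Phe31KO. Phe11KO libraries B and C were the lowest of the 12, and library A lay just below the WT range. The difference from WT was -0.32 ± 0.13 (log2, SE, n = 3), with an adjusted p of 0.238 by limma, and from Phe31KO it was -0.48 ± 0.13 with an adjusted p of 0.0791. Leaving out libraries moved the difference from WT between -0.46 (without Phe11KO A) and -0.19 (without Phe11KO C), and the comparison with Phe31KO passed without Phe11KO library A. Phe11KO brains also had lower values of the 3 oligodendrocyte markers, with summed levels of 31741 to 58713 against 82768 to 97143 in WT, and of the 5 blood markers, with 7588 to 9630.5 against 15395 to 28255; the part of either in mt-Nd5 was not tested. mt-Nd3, another complex I subunit, had 21530.4, 22635 and 20984 in WT, 23405, 26768 and 21507 in Phe11KO, 26282, 24568 and 21586 in Phe21KO and 26955, 26014 and 26184 in Phe31KO. All Phe31KO values lay above the WT values, by 0.28 ± 0.094 (adjusted p = 0.275). The rRNAs varied most among brain libraries: mt-Rnr1 ranged from 37491 to 111387 with a median of 72106 and mt-Rnr2 from 515667 to 1032270 with a median of 824884, with the lowest value of both in Phe21KO library C. In that comparison the log2 difference of mt-Rnr1 was -0.37 ± 0.32, and -0.021 without library C.

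**Figure D3:**
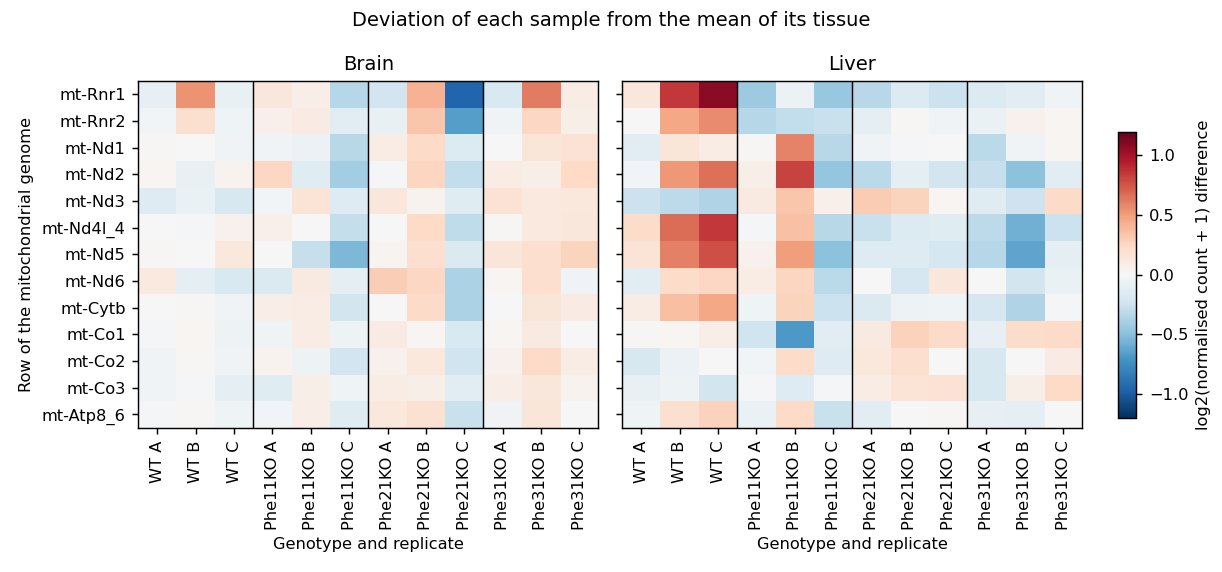
Each cell gives the log2(normalised count + 1) of a mitochondrial row in a sample minus the mean of that row over the 12 samples of the tissue, with red above and blue below the mean. In brain the strongest departure is the rRNAs of Phe21KO library C, and in liver it is the rRNAs and several complex I rows of WT libraries B and C and the complex I rows and mt-Co1 of Phe11KO library B.

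All rows that passed a test between genotypes were in liver, and they were both rRNAs and 2 rows of complex I. In Phe11KO against WT, 3 of 13 rows passed, 1 higher and 2 lower, where 17.3% of all genes passed (8.27% higher and 9.08% lower). The share among mitochondrial rows was thus near that among all genes, and edgeR also called 3. In Phe31KO against WT 1 of 13 passed, lower, where 0.883% of all genes passed (0.189% higher and 0.694% lower), and in Phe21KO against WT 0 of 13 passed with limma or edgeR (0.132% of all genes), with 6 rows at an unadjusted p under 0.05. The median log2 difference from WT over the 13 rows was -0.24, -0.17 and -0.21 for Phe11KO, Phe21KO and Phe31KO, beside -0.0051, 0.00090 and 0.0086 over all genes, and in each 9 rows had a negative and 4 a positive difference. The 3 comparisons share the WT libraries. WT B and C stood apart from WT A and from the knockouts in both rRNAs and in mt-Nd4l_4, but not from WT A in mt-Nd3. The differences without both are therefore given beside each call. B and C were chosen after their values were seen, and WT A alone is left without them. These differences are thus given as sizes only and do not test the calls.

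mt-Rnr1, the rRNA of the small mitochondrial ribosomal subunit, fell in Phe11KO liver. Its normalised counts were 67710.4, 110674 and 130130 in WT, 45371, 58618 and 44817 in Phe11KO, 48787, 54894 and 51399 in Phe21KO and 54811, 56203 and 59788 in Phe31KO. All 9 knockout libraries were below all 3 WT libraries. The log2 difference in Phe11KO was -1.01 ± 0.20 (SE, n = 3, limma adjusted p = 0.00617), and it was past the threshold when any single library was left out (adjusted p of 0.000517 to 0.0294). Without both WT libraries B and C, which leaves WT library A alone, it was -0.46. The difference was -0.94 ± 0.20 in Phe21KO (adjusted p = 0.0886) and -0.80 ± 0.20 in Phe31KO (adjusted p = 0.0895). Without WT library A these 2 passed the threshold, at -1.22 (adjusted p = 0.0118) and -1.08 (adjusted p = 0.0207).

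mt-Rnr2, the rRNA of the large subunit, fell in Phe11KO liver as well. The counts were 599836, 824482 and 882811 in WT, 469368, 486928 and 495190 in Phe11KO, 550289, 603188 and 580693 in Phe21KO and 564706, 618403 and 606987 in Phe31KO. Phe11KO libraries were all below WT, while WT library A was within the range of Phe21KO and Phe31KO. The log2 difference was -0.65 ± 0.19 in Phe11KO (adjusted p = 0.0389), -0.39 ± 0.19 in Phe21KO (0.366) and -0.35 ± 0.19 in Phe31KO (0.412). The Phe11KO call was lost without WT B, WT C or any Phe11KO library, with adjusted p up to 0.156, with no filter on low rows (0.110) and with only the 2 genotypes fitted (0.143). Without both WT B and C the difference was -0.31. mt-Nd3 was the only row called higher than WT, in Phe11KO. Its normalised counts were 24433, 23379 and 22641 in WT, 31492, 36689 and 30301 in Phe11KO, 35968, 35176 and 29622 in Phe21KO and 26323, 24579 and 34150 in Phe31KO. All 9 knockout values lay above all WT values. The difference was 0.48 ± 0.13 in Phe11KO (adjusted p = 0.0281), 0.51 ± 0.13 in Phe21KO (0.135) and 0.26 ± 0.13 in Phe31KO (0.369). The Phe11KO call was lost without WT B (adjusted p = 0.0742), WT C (0.0952), Phe11KO A (0.0622) or Phe11KO B (0.0786). Without both WT B and C the difference was 0.42.

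mt-Nd4l_4, the joined mRNA of 2 membrane subunits of complex I, fell in Phe31KO liver. Its normalised counts were 33744, 46264 and 52203 in WT, 28604, 36978 and 23009.5 in Phe11KO, 24058, 25813 and 26194 in Phe21KO and 23328, 19424 and 24200 in Phe31KO. All Phe21KO and Phe31KO values lay below the WT values, and Phe11KO library B was within the WT range. The log2 difference was -0.96 ± 0.18 in Phe31KO (adjusted p = 0.0391), -0.77 ± 0.18 in Phe21KO (0.112) and -0.58 ± 0.18 in Phe11KO (0.0504). In Phe31KO the call held only without WT library A (0.0449) of the 6 libraries and was lost without any of the other 5 (adjusted p up to 0.156). It was also lost with only the 2 genotypes fitted (0.107). Without both WT B and C the difference was -0.60. In Phe11KO it passed with rows of a mean of at least 50 (adjusted p = 0.0456), without WT A (0.0172) and without Phe11KO B (0.0162). mt-Nd5 and mt-Nd2, which encode further membrane subunits of complex I, did not pass the threshold. mt-Nd5 had 25325, 34215 and 38510.3 in WT, 23363, 31951 and 16034 in Phe11KO, 20281, 20238 and 19452 in Phe21KO and 17797, 14564 and 20772 in Phe31KO. All Phe21KO and Phe31KO values lay below WT, with a difference of -0.88 ± 0.23 in Phe31KO (adjusted p = 0.0958) and -0.49 ± 0.23 in Phe11KO (0.161). mt-Nd2 had a difference of -0.68 ± 0.27 in Phe31KO (adjusted p = 0.240) and -0.24 ± 0.27 in Phe11KO (0.584).

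**Figure D4:**
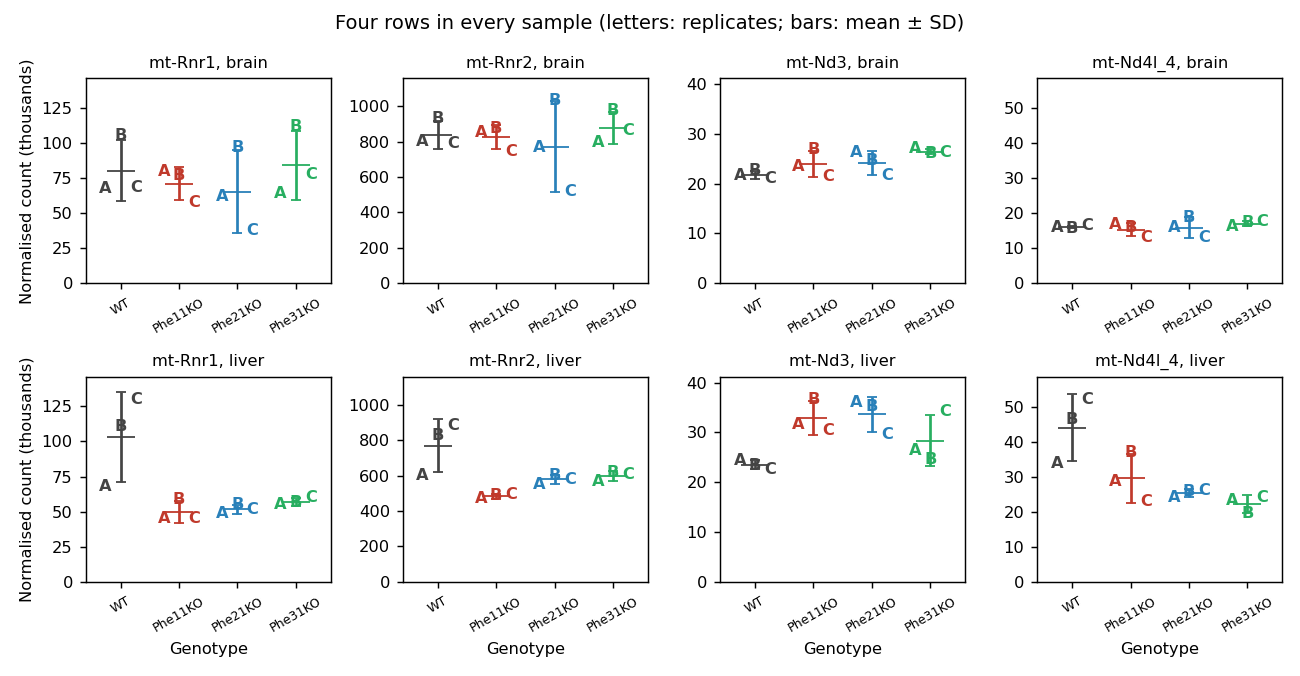
Letters give the normalised count (in units given on the axis) of mt-Rnr1, mt-Rnr2, mt-Nd3 and mt-Nd4l_4 in each replicate of the 4 genotypes, in brain (upper row) and liver (lower row), with the mean (bar) and SD (n = 3). In liver WT B and C are the highest values of both rRNAs and of mt-Nd4l_4, while the 3 WT values of mt-Nd3 lie together at 22641 to 24433.

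The remaining rows did not pass in any liver comparison with WT. mt-Cytb had log2 differences of -0.32 ± 0.14, -0.40 ± 0.14 and -0.50 ± 0.14 in Phe11KO, Phe21KO and Phe31KO. Without Phe11KO library B it passed in Phe11KO, at -0.46 (adjusted p = 0.0440), as did mt-Nd5, at -0.73 (0.0357). mt-Atp8_6 had -0.17 ± 0.14, -0.17 ± 0.14 and -0.21 ± 0.14, and the light-strand gene mt-Nd6 had -0.10 ± 0.15, -0.14 ± 0.15 and -0.21 ± 0.15. All of these were negative, and most complex IV values were positive. Of the complex IV rows mt-Co2 had 0.099 ± 0.13, 0.20 ± 0.13 and 0.058 ± 0.13 and mt-Co3 had 0.059 ± 0.14, 0.27 ± 0.14 and 0.16 ± 0.14. mt-Co1 had -0.39 ± 0.21, 0.17 ± 0.21 and 0.080 ± 0.21, and in Phe11KO its counts were 645092, 471500 and 688643 against 766781, 769716 and 795918 in WT. mt-Nd1 had 0.056 ± 0.19, -0.052 ± 0.19 and -0.15 ± 0.19. In Phe11KO library B, mt-Co1 was at its lowest while mt-Nd1 and mt-Nd2 were above every other knockout library, and complex IV rows fell to 71.9% of mitochondrial mRNA. Rows whose 3 values all lay on a side of the 3 WT values numbered 1 above and 3 below in Phe11KO (background of 17.2 and 17.6% of genes), 3 above and 5 below in Phe21KO (13.1 and 12.2%) and 1 above and 5 below in Phe31KO (9.85 and 10.1%).

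**Figure D5:**
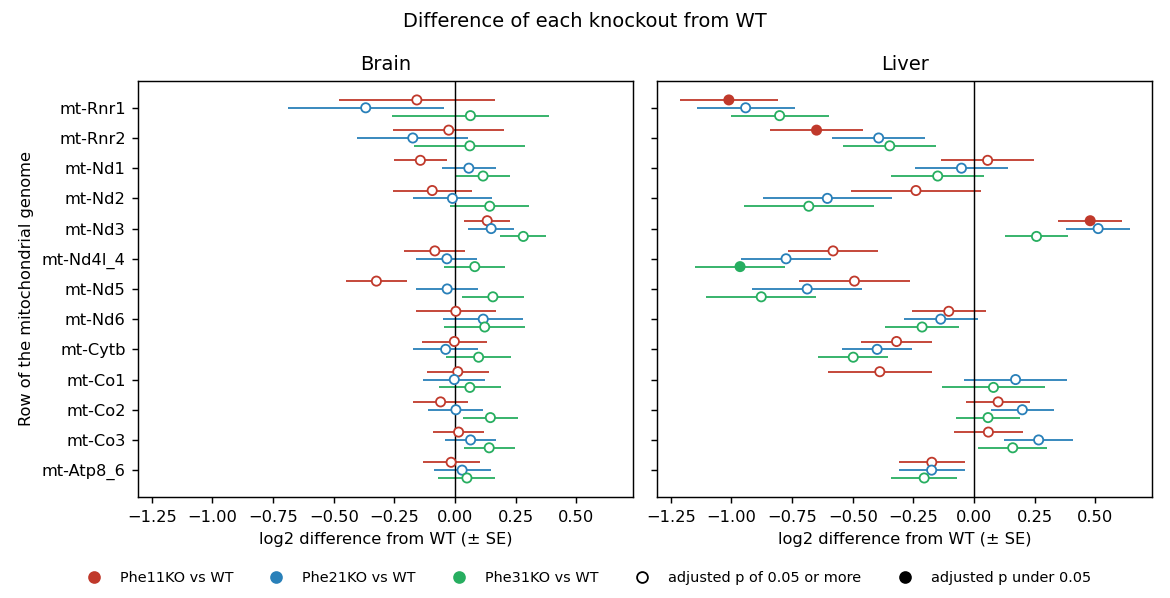
Points give the log2 difference of each knockout from WT (limma, ± SE, n = 3 per genotype) for the 13 tested rows in brain and liver, filled where the adjusted p is under 0.05. Filled points are found in liver only, at mt-Rnr1, mt-Rnr2 and mt-Nd3 for Phe11KO and at mt-Nd4l_4 for Phe31KO.

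Between knockouts, liver gave 0 of 13 rows by limma in Phe11KO against Phe21KO (15.9% of all genes), Phe11KO against Phe31KO (16.1%) and Phe21KO against Phe31KO (0%), with 1, 1 and 0 rows at an unadjusted p under 0.05 and 1, 0 and 0 called by edgeR. For mt-Rnr1 the difference between Phe11KO and Phe21KO was -0.069 ± 0.20, and between Phe11KO and Phe31KO -0.21 ± 0.20. The call of mt-Rnr1 in Phe11KO is therefore not shown to be particular to that genotype. In the test for any difference among the 4 genotypes 3 of 13 rows passed by limma and by edgeR, where 17.0% of all genes passed: mt-Rnr1, mt-Nd4l_4 and mt-Nd3. Without WT library B or without WT library C, none of the 13 passed. Marker genes of hepatocytes and of blood also differed in level with the groups in liver. The summed level of 5 hepatocyte markers was 2453890 to 3007610 in WT, 1899190 to 2291180 in Phe11KO, 2087660 to 2299060 in Phe21KO and 2673480 to 3103740 in Phe31KO. The 5 blood markers summed to 19732 to 26031, 11566 to 13839.9, 19244 to 38913 and 26855 to 33318. The blood sums were lowest in all Phe11KO libraries, while the hepatocyte sums of Phe11KO and Phe21KO overlapped. The hepatocyte sum was mostly Alb, with a median of 1810510 over the liver libraries against 121750 to 192530 for the other members. All members of both lists were detected, and their part in the mitochondrial values was not tested.

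Whether a knockout differed from WT by unlike amounts in brain and liver was tested in a single limma fit over the 24 samples. Among the 13 mitochondrial rows 0 passed for Phe11KO (6.94% of all genes), 0 for Phe21KO (0.0346%) and 1 for Phe31KO (0.450%), with 5, 3 and 5 at an unadjusted p under 0.05. edgeR was not run on this contrast. The row was mt-Nd4l_4. Its brain counts were 15952, 15765 and 16510.5 in WT, 16637, 16008 and 13112 in Phe11KO, 15891, 18794 and 12964 in Phe21KO and 16176, 17373 and 17501 in Phe31KO, where the genotypes overlapped, and its liver counts are given above. The Phe31KO difference from WT was 0.081 ± 0.13 in brain and -0.96 ± 0.18 in liver, which differ by 1.05 ± 0.23 on the log2 scale (adjusted p = 0.0490). The call was kept in 2 of 12 fits that each left out a library, those without liver WT A and without liver Phe31KO A, and over the 12 the adjusted p was 0.0260 to 0.119. For mt-Nd5 the Phe31KO effects differed by 1.03 ± 0.27 (adjusted p = 0.0809), which passed without liver WT library A at 1.21 (0.0454), and for mt-Rnr1 the Phe11KO effects differed by 0.85 ± 0.40 (adjusted p = 0.215).

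The nuclear genes that replicate, transcribe and process mitochondrial DNA were taken as a list of 38, all of which were tested in both tissues. In brain 0 of the list passed in any comparison with limma or edgeR, with 3, 3 and 3 at an unadjusted p under 0.05 in Phe11KO, Phe21KO and Phe31KO against WT. In liver 7 of 38 passed in Phe11KO against WT, 5 higher and 2 lower, which is near the 17.3% among all genes. None passed in Phe21KO or Phe31KO against WT with limma or edgeR, with 7 and 3 at an unadjusted p under 0.05. Pde12, which trims poly(A) tails from mitochondrial RNA, had 500.3 ± 70.0 normalised counts in WT and 906 ± 7.42 in Phe11KO (SD, n = 3), a log2 difference of 0.86 ± 0.14 (adjusted p = 0.00180). Mgme1, a nuclease of mitochondrial DNA maintenance, rose, with a difference of 0.52 ± 0.10 (adjusted p = 0.00579). Top1mt, the mitochondrial topoisomerase, had a difference of -0.65 ± 0.15 (adjusted p = 0.0132). Pde12 and Mgme1 also passed in Phe11KO against Phe31KO, at 0.66 ± 0.14 (adjusted p = 0.00830) and 0.48 ± 0.10 (adjusted p = 0.00978). The best known transcription and RNA stability factors did not pass in Phe11KO against WT. Tfam, which packages mitochondrial DNA and starts transcription, had a difference of -0.21 ± 0.11 (adjusted p = 0.210), and Polrmt, the mitochondrial RNA polymerase, -0.068 ± 0.20 (adjusted p = 0.853). Lrpprc and Slirp, which together bind mitochondrial mRNA, had 0.18 ± 0.093 (adjusted p = 0.213) and 0.027 ± 0.091 (adjusted p = 0.873). Fars2, the synthetase that charges mt-Tf with phenylalanine, had -0.075 ± 0.13 (adjusted p = 0.728). In brain the largest difference from WT of these 5 factors was that of Polrmt in Phe31KO, 0.54 ± 0.15 (adjusted p = 0.222). Against Phe31KO, Tfam in Phe11KO liver had a difference of -0.48 ± 0.11 (adjusted p = 0.0132), and Fastkd1, of a family that acts on mitochondrial RNA, 0.49 ± 0.11 (adjusted p = 0.0130). In Phe11KO against WT, 2 to 7 genes of the list passed with single libraries left out: 2 without WT library C, 3 without Phe11KO library A and 4 without WT library B. Against Phe21KO 7 of the list passed in Phe11KO (15.9% of all genes) and against Phe31KO 5 (16.1%). The lowest adjusted p against Phe21KO were those of Mgme1, 0.47 ± 0.10 (adjusted p = 0.0109), Pde12, 0.58 ± 0.14 (adjusted p = 0.0153), and Ssbp1, which coats single-stranded mitochondrial DNA, -0.45 ± 0.10 (adjusted p = 0.0154). Fewer passed against Phe21KO without Phe21KO library B or C (2 each) or without Phe21KO A or Phe11KO B (4 each), and 2 passed against Phe31KO without Phe11KO A. The median log2 difference of the list from WT in liver was 0.048, 0.059 and 0.028 in Phe11KO, Phe21KO and Phe31KO.

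In sequence, the mRNA rows were 348 to 1824 bases long with 33.0 to 39.9% GC. The rRNA rows had lengths of 955 and 1582 bases with 35.8 and 35.4% GC. The tRNA rows had 59 to 75 bases with 17.1 to 44.9% GC. The row called higher in liver, mt-Nd3, is the shortest mRNA row, with 33.0% GC. Those with the largest negative differences among mRNAs, mt-Nd4l_4 and mt-Nd5, are the 2 longest, with 36.6 and 37.1% GC. mt-Co1, of similar length (1545 bases) and 39.9% GC, had differences of -0.39 ± 0.21, 0.17 ± 0.21 and 0.080 ± 0.21. The next shortest mRNA row, mt-Nd6 (519 bases), had a negative difference in each knockout. The largest negative difference in Phe11KO was that of mt-Rnr1 (955 bases). The part of transcript length in the differences was not tested.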

How the data were processed

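RNA of 12 brain and 12 liver samples was sequenced. The authors trimmed paired reads with Trim Galore and cutadapt, aligned them with STAR to GRCm38.p6, masked for nuclear copies of mitochondrial sequence and given custom mitochondrial annotations, and quantified genes with Salmon in strand-aware mode. The deposited values are normalised counts by DESeq2 for each tissue, a signal on a scale of its own in each table. Every value was a whole number, a read count estimated by Salmon and rounded, divided by a library factor (tolerance 0.001), which gave the depth of 30365760 to 46225360 reads in brain and 32276896 to 51584522 in liver and so the counting floor of 3 reads. Rows with a mean of at least 10 were fitted as log2(value + 1), which understates changes of low rows, by limma 3.58.1 with a mean-variance trend (R 4.3.3, all 4 genotypes of a tissue), with Benjamini-Hochberg adjustment over 19228 genes in brain, 15856 in liver and 14456 in the comparison of tissues. Shares were compared by exact permutation over samples. edgeR 4.0.16 on recovered reads, fits without liver WT libraries B and C together, leave-one-out fits of the tissue comparisons and alternatives for the nuclear factors were added after seeing the data. Other alternatives changed the pseudocount, filter, scaling, samples and replicate block. Named were all mRNA and rRNA rows, mt-Tf, the 3 tRNA rows with the highest mean per tissue, 5 fixed nuclear factors and up to 3 with the lowest adjusted p per comparison. The members and lists were chosen with earlier results of these data known. No replicate pair agreed within sampling noise. Sequences came from GENCODE transcripts of GRCm39, whose mitochondrial coordinates were the same as those of GRCm38.p6 in RefSeq, and the guide from the study's supplementary data. Scripts were tested on simulated data.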

Additional observations from a re-analysis of the deposited data

Results flagged for a closer look

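The Phe31KO difference from WT of mt-Nd4l_4 was set apart because a test of the difference between tissues passed: the brain effect minus the liver effect was 1.05 on the log2 scale (0.081 ± 0.13 in brain and -0.96 ± 0.18 in liver, limma adjusted p = 0.0490). With the replicate block the adjusted p was 0.0687, and leaving out liver WT library C gave 0.91 with an adjusted p of 0.119. In liver the 3 WT counts were 33744, 46264 and 52203, and in brain 15952, 15765 and 16510.5. Groups of 3 libraries are too small for a test of single outlying samples.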

How the results depend on the processing

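Alternatives other than leaving out a single library include the fits without both liver WT libraries B and C. Under all these alternatives, 160 values of the counts and shares that answer a comparison kept their call or size. Of the rest 12 moved, 4 lost and 2 gained a call and 1 reversed. With a library left out 312 kept it, 24 moved, 9 lost and 3 gained a call. The number of mitochondrial rows called moved as follows. In liver Phe21KO against WT it went from 0 to 1 with no filter (mt-Tw, 1.65 ± 0.25, adjusted p = 0.0333, from at most 3 reads a library) and to 1 (mt-Nd3) with only the 2 genotypes fitted. Phe11KO against Phe21KO went from 0 to 1 with no filter (mt-Tw) and to 1 with edgeR. Phe31KO against WT went from 1 to 0 with only the 2 genotypes. Fits without both WT libraries B and C left WT library A alone, so their number of rows called is not given. With a library left out the count was 1 to 4 for Phe11KO, 0 to 1 for Phe21KO and 0 to 2 for Phe31KO against WT, 0 to 3 for any genotype difference, 0 to 1 for brain Phe11KO against Phe31KO and 0 to 2 for the tissue difference of Phe31KO. The nuclear factors called in liver Phe11KO went from 7 to 4 against Phe21KO with no filter, and with only the 2 genotypes from 7 to 4 against WT, 7 to 4 against Phe21KO and 5 to 2 against Phe31KO. The cause was not tested.

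The replicate letters were not treated as pairs. Deviations of same-letter samples correlated at -0.16 to 0.49 in brain and -0.29 to 0.24 in liver, over 0.1 in 7 and 3 of 18 pairs. For samples of different letters the values were -0.36 to 0.33 in brain and -0.36 to 0.37 in liver, over 0.1 in 9 and 10 of 36 pairs. These values do not settle whether the letters pair the samples. With the letter as a replicate block, liver Phe11KO against WT had 1 row, mt-Rnr1, with mt-Nd3 at an adjusted p of 0.0550 and mt-Rnr2 at 0.0635. Phe31KO against WT had 0, with mt-Nd4l_4 at 0.0688, as did the tissue difference of Phe31KO. The nuclear factors in liver Phe11KO against Phe21KO went from 7 to 4, and no other count moved past 1.5 times.

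The adjusted p of shares across genotypes, with a library left out, ran over 0.00156 to 0.192 (all rows), 0.0109 to 0.181 (mRNA) and 0.00182 to 0.181 (rRNA) in liver and 0.0434 to 0.653 (mRNA) in brain. Without the 10 most abundant nuclear rows in the total it was 0.0362 for all rows and 0.0362 for mRNA in liver, and without both WT B and C 0.0876 for rRNA. Brain minus liver reversed for the mitochondrial share with rRNA rows out of the total (-0.197 points), by construction of that total. In WT samples only, too few to pass, it was 0.164 for all rows, -0.365 for mRNA and 0.529 for rRNA, and 0 of 11 mRNA rows passed. The rRNA share of a total without rRNA rows cannot be formed. Scaling to nuclear counts moved the median of all genes by at most 0.056 (log2). Precision is limited by 3 libraries a group, and for the tRNA rows by their few reads.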

Other observations

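mt-Tw, the tRNA for tryptophan, had 7 reads in liver, all of them in the 3 Phe21KO libraries, and 0 in the other 9. In brain it had 6 reads, at most 1 in a library, in 6 libraries of all 4 genotypes. It was chosen after its values were seen. Of the 63 reads on the 8 light-strand tRNA rows, 46 were on mt-Ts1. mt-Tv had 13 reads in brain and 1 in liver.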
